A study of Homo sapiens with 12 samples.

Results

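Knockout of CD44 in the breast cancer cell line Hs578T was described across genes from 6 RNA-seq libraries, 3 of Hs578T CD44 KO and 3 of Hs578T CD44 WT, which are 6 of the 12 libraries of the series. The study measured RNA of Hs578T and of a further triple negative breast cancer line, MDA-MB-231, each with and without CD44, to find signalling downstream of CD44. All cells carried Cas9 from an inducible lentiviral vector, and the CD44 KO cells also received guide RNAs that cut the CD44 gene in exon 1 and in exon 5. The CD44 WT cells had been through the transfection reagent alone, without a guide. The study then sorted live cells that carried CD29, the beta 1 integrin, and either kept CD44 at the surface (CD44 WT) or had lost it (CD44 KO). It grew the sorted populations and kept them in low serum before RNA was taken. Each group was therefore a sorted population, not a clone, and differs from the other by the guides, by the gate on CD44 and by its growth after the sort, which cannot be told apart. Whether the 3 libraries of each group were grown as separate cultures is not given in the sources used here, so that p-values measure only the spread between these samples.

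CD44 is a transmembrane receptor for hyaluronan, a long unbranched sugar polymer of the extracellular matrix. Its intracellular tail binds ankyrin and the ezrin, radixin and moesin proteins, which join it to the cytoskeleton, and it acts as a co-receptor for several receptor kinases. In breast cancer it is used, with low CD24, as a marker of cells with stem-like behaviour. The guides were directed at the exons shown here in the reference sequence, which is printed because this gene was the target of the guides and of the sort. The coding part of exon 1 lies at chr11:35139304-35139370 on the plus strand of GRCh38 and holds the start codon (capitals), and exon 5 at chr11:35189835-35190065 lies in the coding sequence for the extracellular part, with exons numbered in an 18-exon transcript of GENCODE 44.
CD44 exon 1: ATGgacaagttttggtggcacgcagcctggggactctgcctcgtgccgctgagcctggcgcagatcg
CD44 exon 5: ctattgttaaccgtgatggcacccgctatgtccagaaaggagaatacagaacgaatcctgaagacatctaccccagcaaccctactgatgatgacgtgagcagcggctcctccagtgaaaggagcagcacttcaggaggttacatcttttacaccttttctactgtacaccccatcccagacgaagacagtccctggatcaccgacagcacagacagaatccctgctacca

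CD44 itself was read first. CD44 (ENSG00000026508.18, chromosome 11) gave 547, 513 and 520.2 CPM in the 3 CD44 WT libraries and 29.5, 29.6 and 25.9 CPM in the 3 CD44 KO libraries, where CPM is the count of a gene scaled for the size and composition of its library. The CD44 KO libraries lay far below the CD44 WT libraries and still held CD44 RNA in each. The fitted values were log2 fold change -4.21, standard error 0.0777, adjusted p = 3.17e-10. Every adjusted p here and below is from edgeR's quasi-likelihood test, adjusted by Benjamini-Hochberg over the whole set of genes tested. An exact permutation test of 3 against 3 libraries cannot give a p below 0.1 for a single gene. Because the cells were sorted on CD44, this value checks the labels and is not a finding. ITGB1, which encodes CD29 and was the other gate, went from 773 ± 9.22 to 912 ± 53.3 CPM (mean ± SD, n = 3 libraries, here and for every level below), and its change missed the threshold (log2 fold change 0.24, standard error 0.0649, adjusted p = 0.0241).

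Of 58381 genes counted, 14655 passed 1 CPM in 2 or more libraries and had exons that summed to 300 nt or more, and these were tested. The threshold was an adjusted p of 0.01, which 1525 genes met ("called" below), or 10.4% of those tested, 766 higher in CD44 KO (5.23%) and 759 lower (5.18%). The groups did not overlap in any of the 1525 genes, nor in 39% of all genes tested. Changes of at least 2-fold made up 372 of the higher and 352 of the lower genes, and the median size of a called change was 0.917 on the log2 scale. These counts moved with the libraries used: 755 genes passed without CD44 KO replicate 1, 722 without CD44 KO replicate 2, 809 without CD44 KO replicate 3, 908 without CD44 WT replicate 1, 698 without CD44 WT replicate 2 and 2141 without CD44 WT replicate 3. List counts below from fits without 1 library are to be read beside these totals, since calls over all genes fell or rose in the same fits. CD44 WT replicate 3 stood apart from the other libraries on the second principal component (32.53 against -16.99 to 6.19), which held 11.7% of the variance, while the first, with 71.3%, separated the groups. It was the CD44 WT library nearest to the CD44 KO mean in 818 of the 1525 called genes (53.6%), against 41.2% of all genes tested. CD44 WT replicates 1 and 2 were nearest in 18% and 28.4% of called genes, against 25.1% and 33.7% of all tested. On the first component CD44 WT replicates 1, 2 and 3 lay at 49.03, 40.01 and 28.42, and the CD44 KO libraries at -40.95 to -37.61. From replicate 1 to 3 the CD44 WT libraries thus came nearer to CD44 KO. Some genes named below follow this order (ITGA4, ALCAM) and others do not (HAS2, COL1A2), and its cause was not tested. Total counts ranged from 11328102 to 15737935 per library, and mitochondrial genes took 0.861% to 2.08% of them in an order that crossed the groups.

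The changes were unevenly spread over the genome, which touches many of the gene groups below. Chromosome 2 had 208 lower and 31 higher genes of 1016 tested (median log2 fold change -0.237), and chromosome 13 had 37 lower and 14 higher of 270 (median -0.206). Beyond 120 Mb, chromosome 12 had 44 higher genes and 1 lower of 126 (median 0.396), and chromosome X had 36 lower and 9 higher of 158 (median -0.363). These stretches were picked after the values along the chromosomes were seen and get no test. Together they held 380 of the called genes, 98 higher and 282 lower, among 1570 tested (24.2%), while the other 13085 genes had 668 higher and 477 lower (8.75%). The number of gene copies in these cells was not measured, and its part in the changes was not tested. For several gene groups, counts are also given outside the 4 stretches. Calls were uneven there too: chromosome 19 had 58 lower and 13 higher genes of 996, and chromosome 4 had 58 higher and 16 lower of 523. Chromosome 6 had 40 higher and 11 lower of 642, and chromosome 21 had 17 higher and 2 lower of 145. Counts outside the 4 stretches are therefore not free of uneven spread over the genome.

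**Figure D1:**
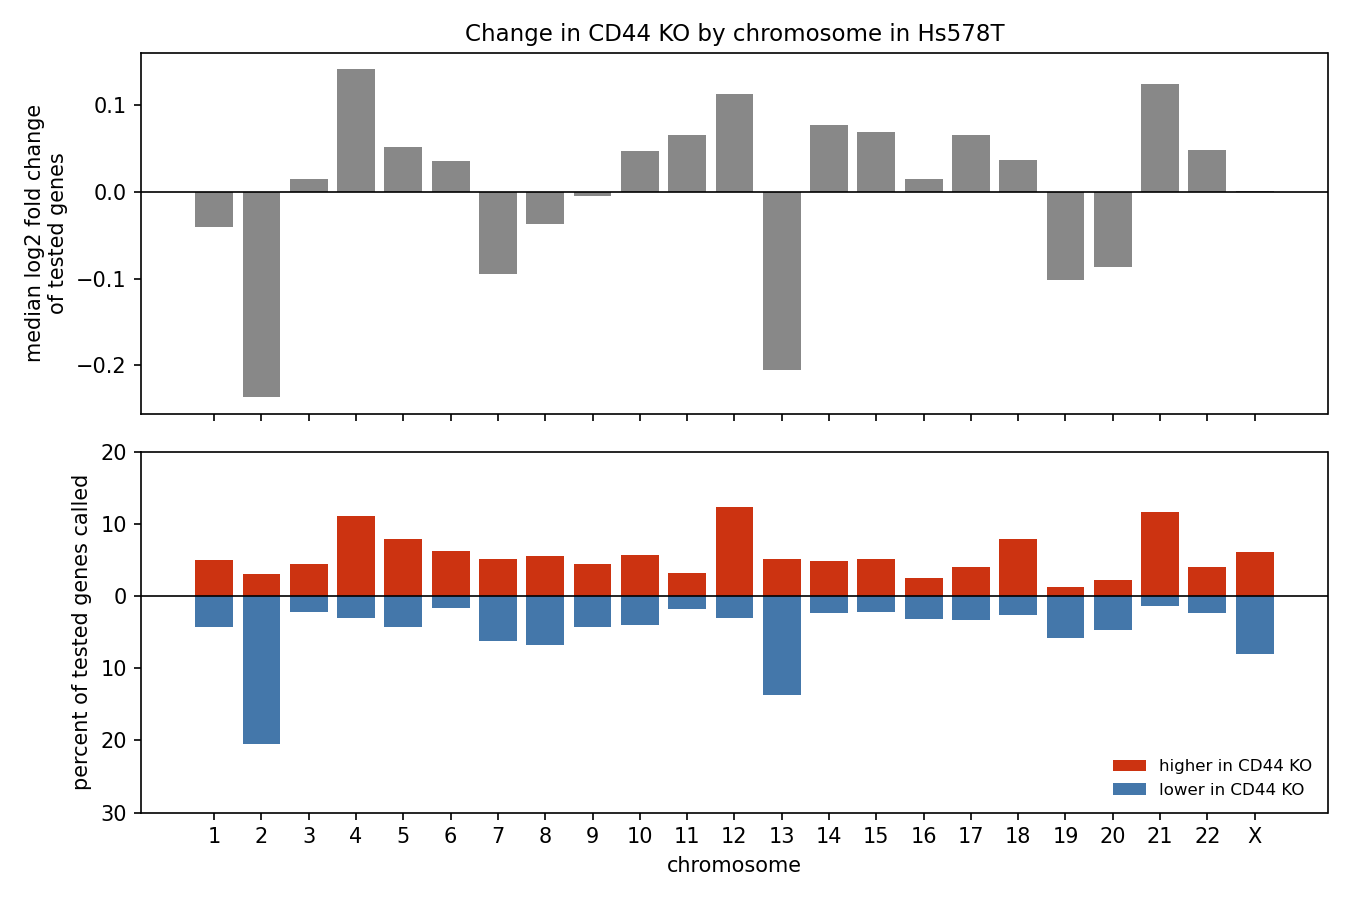
Median log2 fold change (CD44 KO over CD44 WT) of the genes tested on each chromosome (upper panel) and the percent of them called higher (red, upward) or lower (blue, downward) in CD44 KO (lower panel). Of the chromosomes shown, 2 and 13 have the lowest medians, -0.237 and -0.206, and chromosome 2 has 208 lower genes of 1016.

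Across 90 lists of gene families and pathways, the shares of called genes differed widely. Of the lists with at least 20 tested members, the amino acid and ATF4 list had the largest share of higher genes, 18 of 44, and the list of WNT receptors and antagonists the largest share of lower genes, 9 of 23. Ribosomal protein genes, with 1 higher and 2 lower of 80, and ZNF zinc finger genes, with 3 higher and 17 lower of 413, lay below the 10.4% of all genes tested. The edgeR test called 0 of 13 KLF factors, of 10 genes of the Hedgehog pathway and of 10 interleukins and colony-stimulating factors, of which 4, 4 and 3 had an unadjusted p under 0.05 and DESeq2 called 1 each. Without 1 library, WNT receptors and antagonists had 0 to 1 higher (0 in 4 of 6 fits) and 1 to 9 lower (1 without CD44 KO replicate 3). Ribosomal protein genes then had 1 to 3 higher (3 without CD44 WT replicate 3) and 1 to 3 lower (1 in 5 of 6 fits, 3 without CD44 WT replicate 3), against 1 higher and 0 lower of 73 outside the 4 stretches with all 6 libraries. ZNF genes then had 1 to 13 higher (1 without CD44 KO replicate 3 or CD44 WT replicate 2, 13 without CD44 WT replicate 3) and 8 to 19 lower (8 without CD44 WT replicate 2, 19 without CD44 WT replicate 3), against 1 higher and 16 lower of 393 outside the 4 stretches with all 6 libraries.

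Several large families had called genes in both directions. Of 209 solute carriers 17 were higher and 19 lower, and of 56 ion channels other than potassium channels 11 were higher and 6 lower. Genes of oxidative phosphorylation had 1 higher and 5 lower members of 88, HOX genes 1 and 2 of 26, and AP-1 and immediate early factors 1 and 3 of 25. The shares called were 17.2% of solute carriers and 30.4% of these ion channels, beside 10.4% of all genes tested. In the last 3 lists they were 6.82%, 11.5% and 16%. With 1 library left out, solute carriers had 10 to 22 higher (10 in 3 of 6 fits, 22 without CD44 WT replicate 3) and 8 to 27 lower (8 in 3 of 6 fits, 27 without CD44 WT replicate 3). These ion channels then had 4 to 11 higher (4 without CD44 KO replicate 2) and 2 to 10 lower (2 without CD44 KO replicate 1 or CD44 WT replicate 2, 10 without CD44 WT replicate 3). Oxidative phosphorylation genes then had 0 to 1 higher (0 in 5 of 6 fits) and 2 to 5 lower (2 in 5 of 6 fits), against 1 higher and 1 lower of 80 outside the 4 stretches with all 6 libraries. HOX genes then had 0 to 3 lower (0 in 5 of 6 fits, 3 without CD44 WT replicate 3). AP-1 and immediate early factors then had 0 to 4 higher (0 in 3 of 6 fits, 4 without CD44 WT replicate 3) and 1 to 4 lower (1 in 4 of 6 fits, 4 without CD44 WT replicate 3).

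**Figure D2:**
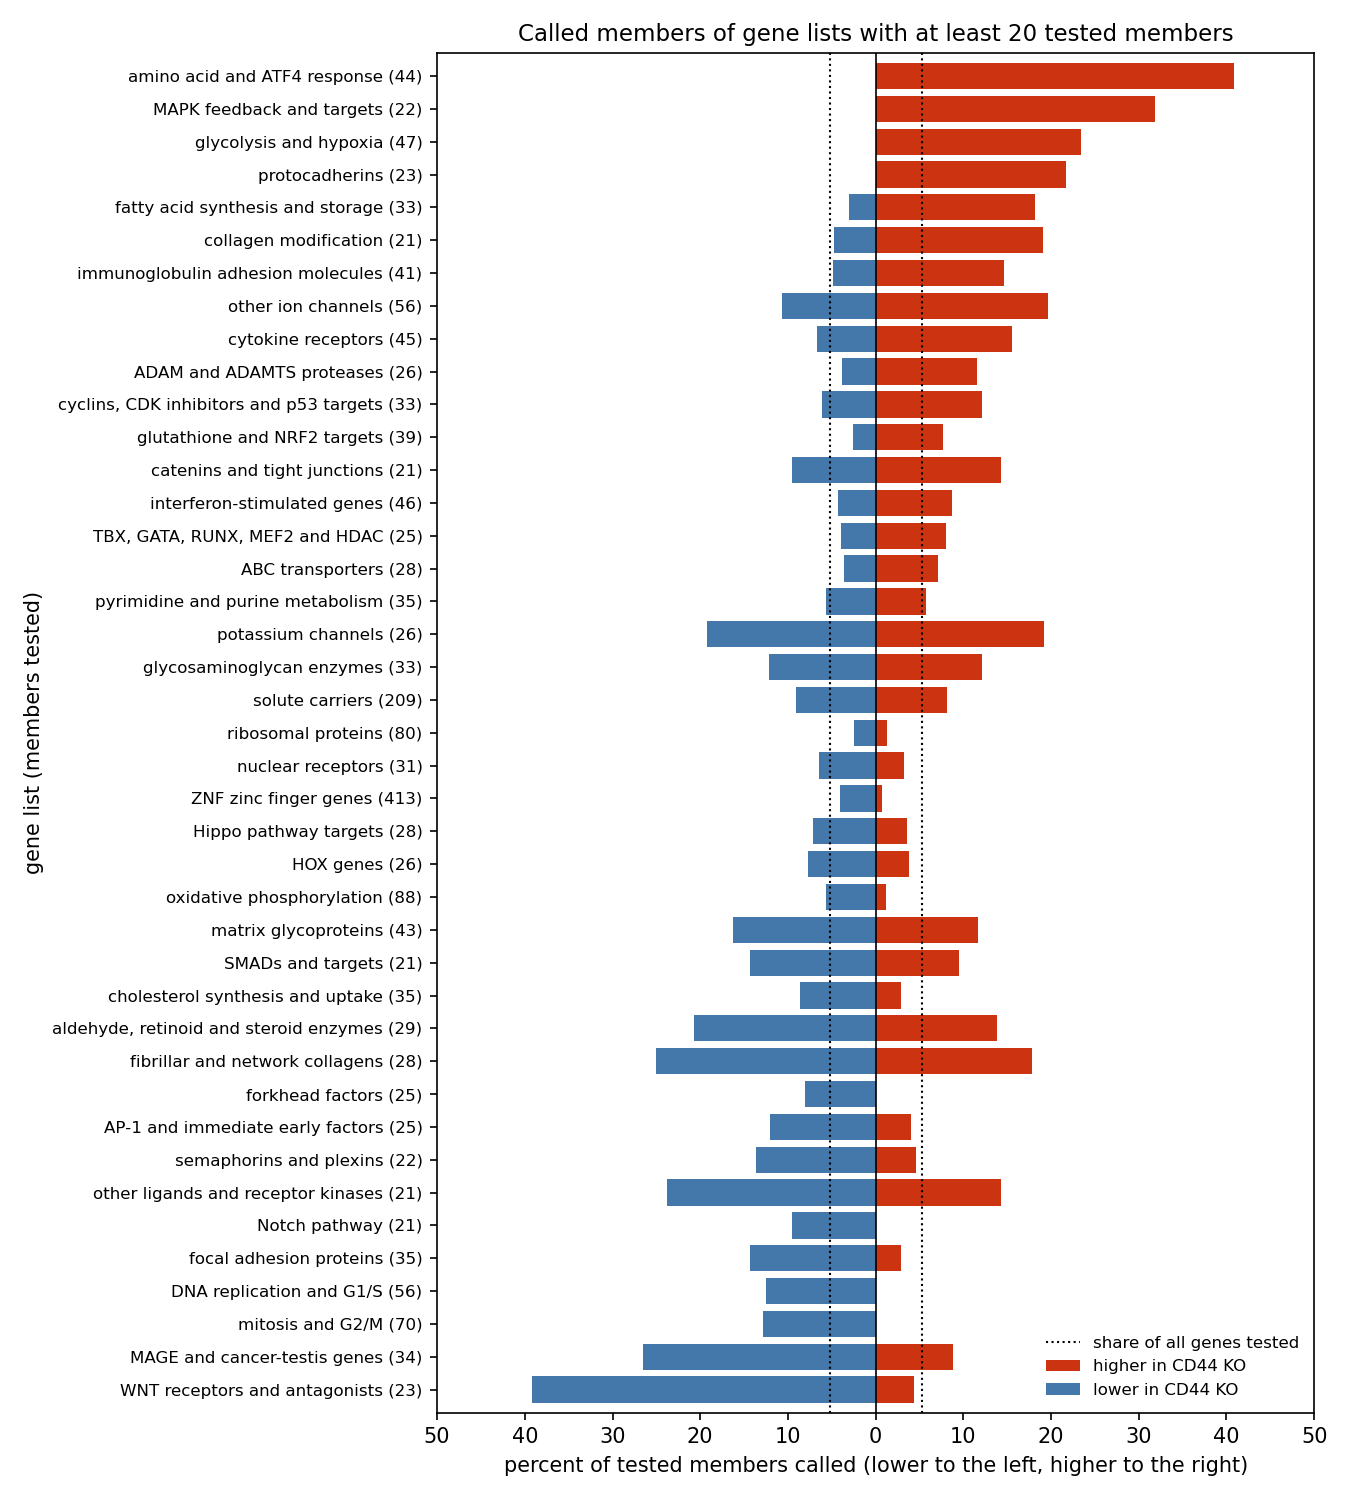
Percent of the tested members of gene lists with at least 20 tested members that were called higher (red, to the right) or lower (blue, to the left) in Hs578T CD44 KO, with the number tested in parentheses and dotted lines at the shares of all genes tested, 5.23% and 5.18%. The amino acid and ATF4 list leads the higher genes with 40.9% of 44, and 9 of 23 WNT receptors and antagonists were lower.

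Among the genes that make or break hyaluronan, the change of HAS2 was the largest. HAS2, a synthase that extrudes hyaluronan at the plasma membrane, rose. It stood at 2.73, 2.99 and 2.81 CPM in the 3 CD44 WT libraries and 19.5, 18.2 and 24.8 CPM in the 3 CD44 KO libraries. The highest CD44 WT library was well below the lowest CD44 KO library (log2 fold change 2.87, standard error 0.17, adjusted p = 2.8e-06). GFPT1, which starts the hexosamine pathway that supplies one sugar of hyaluronan, rose from 184 ± 9.91 to 279 ± 49.7 CPM (log2 fold change 0.60, standard error 0.11, adjusted p = 0.00347), while UGP2, on the path to the other sugar, went from 97.8 ± 0.395 to 89.2 ± 2.44 CPM and was not called (adjusted p = 0.146). In all, 2 of 7 tested synthesis genes were higher and 0 lower. Of 8 breakdown genes, 2 were lower and 1 higher. CEMIP, which binds hyaluronan and starts its cleavage, read 18.8, 16.9 and 12.2 CPM in the 3 CD44 WT libraries and 8.26, 5.75 and 5.5 CPM in the 3 CD44 KO libraries. All CD44 KO libraries lay below (log2 fold change -1.30, standard error 0.203, adjusted p = 0.00146). CEMIP2, a cell surface protein related to CEMIP, fell from 163 ± 30.8 to 112 ± 3.52 CPM (log2 fold change -0.55, standard error 0.116, adjusted p = 0.00734), and HEXA, a lysosomal hexosaminidase subunit, rose from 85.6 ± 4.67 to 112 ± 2.21 CPM (log2 fold change 0.38, standard error 0.0654, adjusted p = 0.00248). HAS2 stayed called with any 1 library left out. GFPT1, CEMIP, CEMIP2 and HEXA lost the call in 2 to 5 of 6 fits, with an adjusted p of up to 0.0378 for CEMIP2 without CD44 WT replicate 2. In the fits without 1 library, synthesis genes had 1 to 2 higher (1 in 3 of 6 fits), against 1 higher and 0 lower of 5 outside the 4 stretches with all 6 libraries. Breakdown genes then had 0 to 1 higher (0 in 3 of 6 fits) and 0 to 3 lower (0 without CD44 KO replicate 2 or CD44 WT replicate 2, 3 without CD44 WT replicate 3).

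Other hyaluronan receptors and matrix partners did not pass. HMMR, another hyaluronan-binding protein, which also works at the mitotic spindle, went from 144 ± 11.9 to 136 ± 8.4 CPM (adjusted p = 0.441), and VCAN, the hyaluronan-binding proteoglycan versican, from 244 ± 36.8 to 196 ± 37 CPM (adjusted p = 0.12). Of 5 tested matrix partners edgeR called 0, with 3 at an unadjusted p under 0.05, and DESeq2 called 0. Among 12 genes that link or signal from the tail of CD44, 2 rose and 1 fell. ANK3, which encodes ankyrin G, rose: it read 2.16, 7.26 and 6.06 CPM in the 3 CD44 WT libraries and 20.6, 22.3 and 22.4 CPM in the 3 CD44 KO libraries (log2 fold change 2.1, standard error 0.293, adjusted p = 0.000782). The lowest ANK3 level was in CD44 WT replicate 1, and all CD44 WT libraries lay below the CD44 KO libraries. ANK1, which encodes another ankyrin, fell from 63.1 ± 0.566 to 41.2 ± 3.8 CPM (log2 fold change -0.62, standard error 0.0837, adjusted p = 0.000633), and FYN, a Src family kinase, rose from 112 ± 7.2 to 146 ± 1.81 CPM (log2 fold change 0.38, standard error 0.0659, adjusted p = 0.00267). MSN, which encodes moesin, went from 913 ± 48.8 to 999.5 ± 44.7 CPM and was not called (adjusted p = 0.197). Each fit that left out 1 library still called ANK3 and ANK1. FYN dropped out in 4 of 6 fits, with an adjusted p of up to 0.0139 without CD44 KO replicate 1. Over the 6 fits that each dropped 1 library, these linker genes had 1 to 3 higher (1 in 4 of 6 fits, 3 without CD44 WT replicate 1 or 3).

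**Figure D3:**
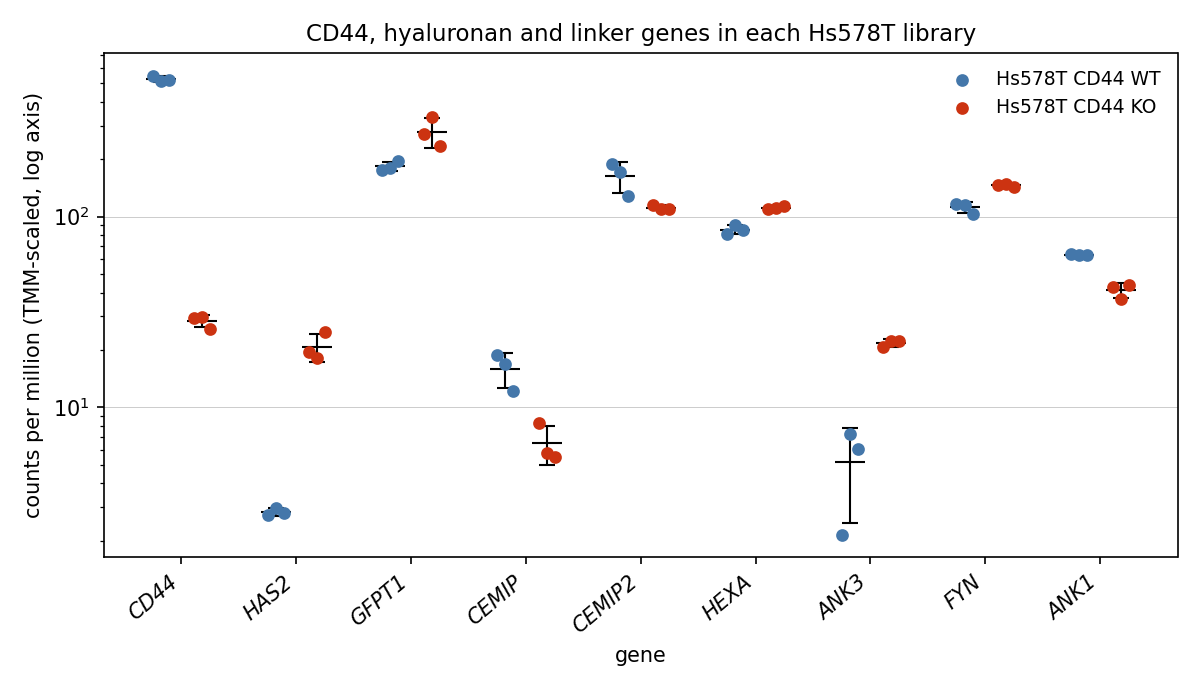
Scaled counts (CPM) on a log axis for CD44, hyaluronan genes and linker genes in each Hs578T library, CD44 WT in blue and CD44 KO in red, with a bar at the mean and error bars of 1 SD (n = 3). HAS2 and ANK3 lie higher in every CD44 KO library, from 2.85 to 20.8 CPM and from 5.16 to 21.8 CPM on average, and CEMIP and CEMIP2 lie lower.

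All called genes of the amino acid and ATF4 response were higher. ATF4 is a transcription factor made when amino acids run short or unfolded protein builds up, and its targets import and make amino acids, charge transfer RNAs and feed 1-carbon metabolism. Of 44 tested members, 18 were higher, 0 lower, and the median log2 fold change was 0.36, beside -0.000591 for all genes tested. Outside the 4 stretches it was 17 of 39. DDIT3, the stress transcription factor CHOP, stood at 38.3, 35.6 and 32.8 CPM in the 3 CD44 WT libraries and 77.5, 91.4 and 63.2 CPM in the 3 CD44 KO libraries. Its CD44 KO libraries were all above the CD44 WT libraries (log2 fold change 1.12, standard error 0.125, adjusted p = 0.000194). The cystine transporter gene SLC7A11 read 79.7, 69.9 and 96.5 CPM in the 3 CD44 WT libraries and 154, 175 and 129.5 CPM in the 3 CD44 KO libraries (log2 fold change 0.90, standard error 0.127, adjusted p = 0.000826). CTH, whose enzyme makes cysteine from cystathionine, rose from 25.2 ± 0.954 to 47.6 ± 6.3 CPM (log2 fold change 0.92, standard error 0.107, adjusted p = 0.000251), and PCK2, the mitochondrial phosphoenolpyruvate carboxykinase, from 187 ± 0.311 to 343 ± 5.9 CPM (log2 fold change 0.88, standard error 0.0564, adjusted p = 4.49e-06). Leaving out a library gave 13 to 19 higher and 0 lower members. No single library decided the call of DDIT3, SLC7A11, CTH and PCK2.

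The other called members of this list, most of them named here after their values were seen, act at several steps of the same response. The transporter subunits SLC7A5 (778 to 1242 CPM) and SLC3A2 (327 to 511 CPM), which form a carrier of large neutral amino acids, and the glutamine carrier SLC1A5 (431 to 539 CPM) were all higher. The mitochondrial folate enzymes SHMT2 (373 to 554 CPM), MTHFD2 (227 to 300.5 CPM) and ALDH1L2 (133 to 207 CPM) were higher as well. The stress-induced regulators TRIB3 (184 to 252 CPM), CHAC1 (41.7 to 71.5 CPM), SESN2 (48 to 85.4 CPM), DDIT4 (454 to 829 CPM), NUPR1 (60.2 to 92.2 CPM) and ATF3 (18.2 to 28.1 CPM) rose too, and HERPUD1 and VLDLR, with log2 fold changes of 0.36 and 0.46, complete the 18. ATF4 itself went from 367 ± 34.1 to 459.5 ± 50.4 CPM and was not called (adjusted p = 0.0311), nor was HSPA5, the endoplasmic reticulum chaperone BiP, which went from 1158 ± 41.3 to 1389 ± 83 CPM (adjusted p = 0.0197). SLC7A5, SLC3A2, SHMT2, ALDH1L2, TRIB3, CHAC1, SESN2, DDIT4 and NUPR1 passed in all 6 fits without 1 library. SLC1A5, MTHFD2, ATF3, HERPUD1 and VLDLR dropped out in 3 to 5 of 6 fits, with an adjusted p of up to 0.0464 for ATF3 without CD44 KO replicate 2.

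ATF4 binds C/EBP-ATF elements, and the letters TGATGNAA of this element, chosen after the list was seen to move, were searched on both strands of promoters of 300 bases (250 before and 50 after the start, RefSeq, GRCh38.p14). They stood in 4 of the 14 matched promoters of the called list members (28.6%), in 3 of the 25 of the members not called (12%), in 5.65% of 549 promoters of all genes called higher, in 1.75% of 573 called lower and in 1.78% of 10613 matched genes tested. The windows around the element before the start are printed for the 3 called members that hold one there, with the element in capitals (for CHAC1 and HERPUD1 it reads on the opposite strand). They lie at chr1:212565200-212565239, chr15:40953246-40953285 and chr16:56931950-56931989, all on the plus strand.
ATF3: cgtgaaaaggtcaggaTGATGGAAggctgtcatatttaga
CHAC1: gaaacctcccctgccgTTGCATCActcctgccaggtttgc
HERPUD1: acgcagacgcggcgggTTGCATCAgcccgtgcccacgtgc
The element begins 191, 209 and 176 bases before the start in these promoters, and the remaining called member with a match, SLC3A2, does not hold it wholly before the start. A match is a description of the sequence and not a binding site. The element overlapped a match of the E-box in 5 promoters and of the TEAD letters in 4, and of the other motifs searched in 0.

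Of the other motifs searched, the AP-1 letters TGANTCA stood in 8.2% of the promoters of genes called higher, 5.24% of those called lower and 4.68% of all. The SMAD letters CAGACA stood in 15.5%, 13.6% and 12.2% in the same order, and the E-box CACGTG in 9.29%, 6.81% and 10.2%. The TEAD letters GGAATG (10.4%, 10.5% and 10.9%) and the loose NF-kappaB motif (69.2%, 73.3% and 73.3%) lay near the share of all promoters in both directions. No test was made of these shares.

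The called genes of glycolysis and the hypoxia response were also higher. This program, driven in low oxygen by HIF transcription factors, raises glucose uptake, lactate export and blood vessel signals. Of 47 tested members 11 were higher and 0 lower, with a median log2 fold change of 0.21 (10 of 42 outside the 4 stretches). CA9, a surface carbonic anhydrase and a sensitive hypoxia marker, stood at 8.2, 11.1 and 8.17 CPM in the 3 CD44 WT libraries and 15, 43.7 and 30.7 CPM in the 3 CD44 KO libraries (log2 fold change 1.72, standard error 0.317, adjusted p = 0.00377). The glucose transporter SLC2A3 rose from 25 ± 3.52 to 57.2 ± 12.3 CPM (log2 fold change 1.20, standard error 0.153, adjusted p = 0.000446), VEGFA, the main endothelial growth factor, from 159.5 ± 4.82 to 328 ± 6.77 CPM (log2 fold change 1.04, standard error 0.0588, adjusted p = 2.31e-06), and NDRG1, a stress-induced gene, from 87.1 ± 9.55 to 157 ± 29 CPM (log2 fold change 0.85, standard error 0.125, adjusted p = 0.00105). The abundant glycolytic enzyme gene GAPDH went from 6239 ± 339 to 6698 ± 119 CPM and was not called (adjusted p = 0.291), nor was HIF1A, at 436 ± 17.8 to 547 ± 114 CPM (adjusted p = 0.0781). Leaving out a library gave 4 to 14 higher members, fewest without CD44 WT replicate 2 and most without CD44 WT replicate 3, where 1 member was also lower. Leaving out any 1 library kept the call of SLC2A3, VEGFA and NDRG1. CA9 missed the threshold in 4 of 6 fits, with an adjusted p of up to 0.0163 without CD44 WT replicate 1.

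Lipid genes were read in 2 lists. Of 33 tested fatty acid genes 6 were higher and 1 lower, and of 35 cholesterol genes 1 was higher and 3 lower. The shares called were 21.2% and 11.4%, beside 10.4% of all genes tested. FASN, the fatty acid synthase, rose from 1422 ± 126 to 2291 ± 427 CPM (log2 fold change 0.69, standard error 0.119, adjusted p = 0.00266), and PLIN4, a lipid droplet coat protein, from 2.16 ± 0.489 to 9.26 ± 2.58 CPM (log2 fold change 2.1, standard error 0.255, adjusted p = 0.000324). The hormone-sensitive lipase gene LIPE read 1, 2 and 1 counts in the CD44 WT libraries and 27, 45 and 21 counts in the CD44 KO libraries, and the fatty acid receptor gene CD36 0, 2 and 1 counts in the CD44 WT libraries and 30, 35 and 9 counts in the CD44 KO libraries. Summed over each group CD36 went from 3 to 74, a ratio of 23.5 with an exact 95% counting interval of 7.72 to 116, which covers counting error only, as do all such intervals below. SREBF1, a regulator of lipid synthesis, rose from 457 ± 43.5 to 628 ± 35.9 CPM (log2 fold change 0.46, standard error 0.0806, adjusted p = 0.00293), and SCD5, a desaturase, fell from 23.9 ± 0.998 to 16.6 ± 1.5 CPM (log2 fold change -0.53, standard error 0.106, adjusted p = 0.00574). The call of PLIN4 and LIPE held with any 1 library left out. FASN, CD36, SREBF1 and SCD5 lost the call, or a gene fell below the filter, in 2 to 5 of 6 fits, with an adjusted p of up to 0.0315 for SCD5 without CD44 WT replicate 2. Leaving out 1 library at a time, fatty acid genes had 3 to 9 higher (3 in 3 of 6 fits, 9 without CD44 WT replicate 3) and 0 to 4 lower (0 in 5 of 6 fits, 4 without CD44 WT replicate 3). Cholesterol genes then had 0 to 1 higher (0 in 3 of 6 fits) and 0 to 1 lower (0 in 4 of 6 fits), against 1 higher and 2 lower of 32 outside the 4 stretches with all 6 libraries.

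Among feedback genes and targets of the RAS and MAPK pathway the called members were higher. Such genes are switched on by ERK, and some of them, phosphatases and adaptors, dampen it again. Of 22 tested members 7 were higher and 0 lower, with a median of 0.33 (6 of 19 outside the 4 stretches). ETV1, an ETS transcription factor, stood at 5.9, 5.72 and 4.31 CPM in the 3 CD44 WT libraries and 45, 60.4 and 41.6 CPM in the 3 CD44 KO libraries. The groups were far apart (log2 fold change 3.20, standard error 0.174, adjusted p = 1.81e-06). DUSP6, the phosphatase that inactivates ERK, read 21.7, 30 and 22.9 CPM in the 3 CD44 WT libraries and 47.6, 88.6 and 62.3 CPM in the 3 CD44 KO libraries (log2 fold change 1.42, standard error 0.204, adjusted p = 0.000913), and it lies on chromosome 12 before 120 Mb. PHLDA1 rose from 96.3 ± 15.3 to 184 ± 33.1 CPM (log2 fold change 0.94, standard error 0.136, adjusted p = 0.000955) and the Sprouty gene SPRY4 from 29.9 ± 4.11 to 56.5 ± 15.7 CPM (log2 fold change 0.93, standard error 0.18, adjusted p = 0.00469). ETV1, DUSP6 and PHLDA1 passed in all 6 fits without 1 library. SPRY4 dropped out in 4 of 6 fits, with an adjusted p of up to 0.021 without CD44 WT replicate 2. Without CD44 WT replicate 3 the list had 8 higher and 2 lower members, and with each other library left out 3 to 7 higher and 0 lower.

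Receptor kinase ligands and receptors changed in both directions. In the EGF family, 3 of 8 tested genes rose and 1 fell: EGF from 9.3 ± 2.24 to 20.2 ± 0.947 CPM (log2 fold change 1.12, standard error 0.164, adjusted p = 0.00102) and the ERBB3 ligand NRG1 from 12 ± 3.25 to 25 ± 2.76 CPM (log2 fold change 1.06, standard error 0.178, adjusted p = 0.00224), while the receptor gene ERBB3 fell from 8.03 ± 2.99 to 2.67 ± 0.453 CPM (log2 fold change -1.57, standard error 0.287, adjusted p = 0.0035). Of 14 PDGF and VEGF genes, 6 rose and 1 fell. VEGFC, a growth factor for lymphatic vessels, stood at 4.89, 5.72 and 6.5 CPM in the 3 CD44 WT libraries and 26.6, 47 and 34.3 CPM in the 3 CD44 KO libraries. No CD44 WT library came near the CD44 KO libraries (log2 fold change 2.67, standard error 0.211, adjusted p = 2.28e-05). PDGFC rose from 7.17 ± 1.14 to 15.9 ± 1.28 CPM (log2 fold change 1.16, standard error 0.15, adjusted p = 0.000495), and PDGFRA, the PDGF receptor alpha, fell from 38.9 ± 7.83 to 15.4 ± 1.94 CPM (log2 fold change -1.34, standard error 0.154, adjusted p = 0.000238). KDR, the main VEGF receptor and an endothelial gene, went from 3 counts to 58 over each group's libraries, a ratio of 18.4 (95% counting interval 5.99 to 91.7). Leaving out any 1 library kept the call of EGF, VEGFC, PDGFC, PDGFRA and KDR. NRG1 and ERBB3 missed the threshold in 2 to 5 of 6 fits, with an adjusted p of up to 0.0189 for ERBB3 without CD44 KO replicate 1. As single libraries were left out, EGF family genes had 1 to 3 higher (1 without CD44 WT replicate 2) and 0 to 1 lower (0 in 5 of 6 fits). PDGF and VEGF genes then had 1 to 2 lower (2 without CD44 WT replicate 3).

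Among other receptor kinases and their ligands, 3 of 21 rose and 5 fell. MET, the receptor of hepatocyte growth factor and a partner of CD44 variants, rose from 103 ± 4.95 to 161 ± 13.5 CPM (log2 fold change 0.65, standard error 0.076, adjusted p = 0.000251). TEK, the angiopoietin receptor, fell from 3.33 ± 1.07 to 0.2 ± 0.0483 CPM (log2 fold change -3.97, standard error 0.417, adjusted p = 0.000137), and its ligand gene ANGPT2 rose from 7.31 ± 1.29 to 14.2 ± 2.12 CPM (log2 fold change 0.97, standard error 0.171, adjusted p = 0.00294). The neurotrophin receptor gene NTRK2 went from 60 counts to 1 over the libraries of each group, a ratio of 63.1 (10.9 to 2533). In the FGF list 1 rose and 1 fell of 10. The FGF-related gene FGF13, on chromosome X beyond 120 Mb, fell from 8.44 ± 3.99 to 0.108 ± 0.0608 CPM (log2 fold change -6.24, standard error 0.57, adjusted p = 5.73e-05). In the insulin-like growth factor system 3 rose and 3 fell of 12 (3 and 1 of 9 outside the 4 stretches). The binding protein gene IGFBP5, on chromosome 2, read 181, 146 and 46.9 CPM in the 3 CD44 WT libraries and 10.5, 21.1 and 15.5 CPM in the 3 CD44 KO libraries (log2 fold change -2.97, standard error 0.424, adjusted p = 0.000885), and its spread was wide in CD44 WT, where replicate 3 was lowest. IGFBP3 rose from 0.385 ± 0.0843 to 2.35 ± 0.349 CPM (log2 fold change 2.60, standard error 0.344, adjusted p = 0.00057). The call of MET, TEK, FGF13, IGFBP5 and IGFBP3 held with any 1 library left out. ANGPT2 and NTRK2 lost the call, or a gene fell below the filter, in 4 to 5 of 6 fits, with an adjusted p of up to 0.022 for NTRK2 without CD44 KO replicate 2. Across the fits on 5 libraries, these other kinases and ligands had 1 to 4 higher (1 without CD44 KO replicate 2 or CD44 WT replicate 1, 4 without CD44 WT replicate 3) and 2 to 7 lower (2 in 4 of 6 fits, 7 without CD44 WT replicate 3). The FGF list had 1 higher and 0 lower of 9 outside the 4 stretches with all 6 libraries. The insulin-like growth factor system then had 1 to 3 higher (1 in 4 of 6 fits) and 1 to 5 lower (1 without CD44 WT replicate 2, 5 without CD44 WT replicate 3).

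**Figure D4:**
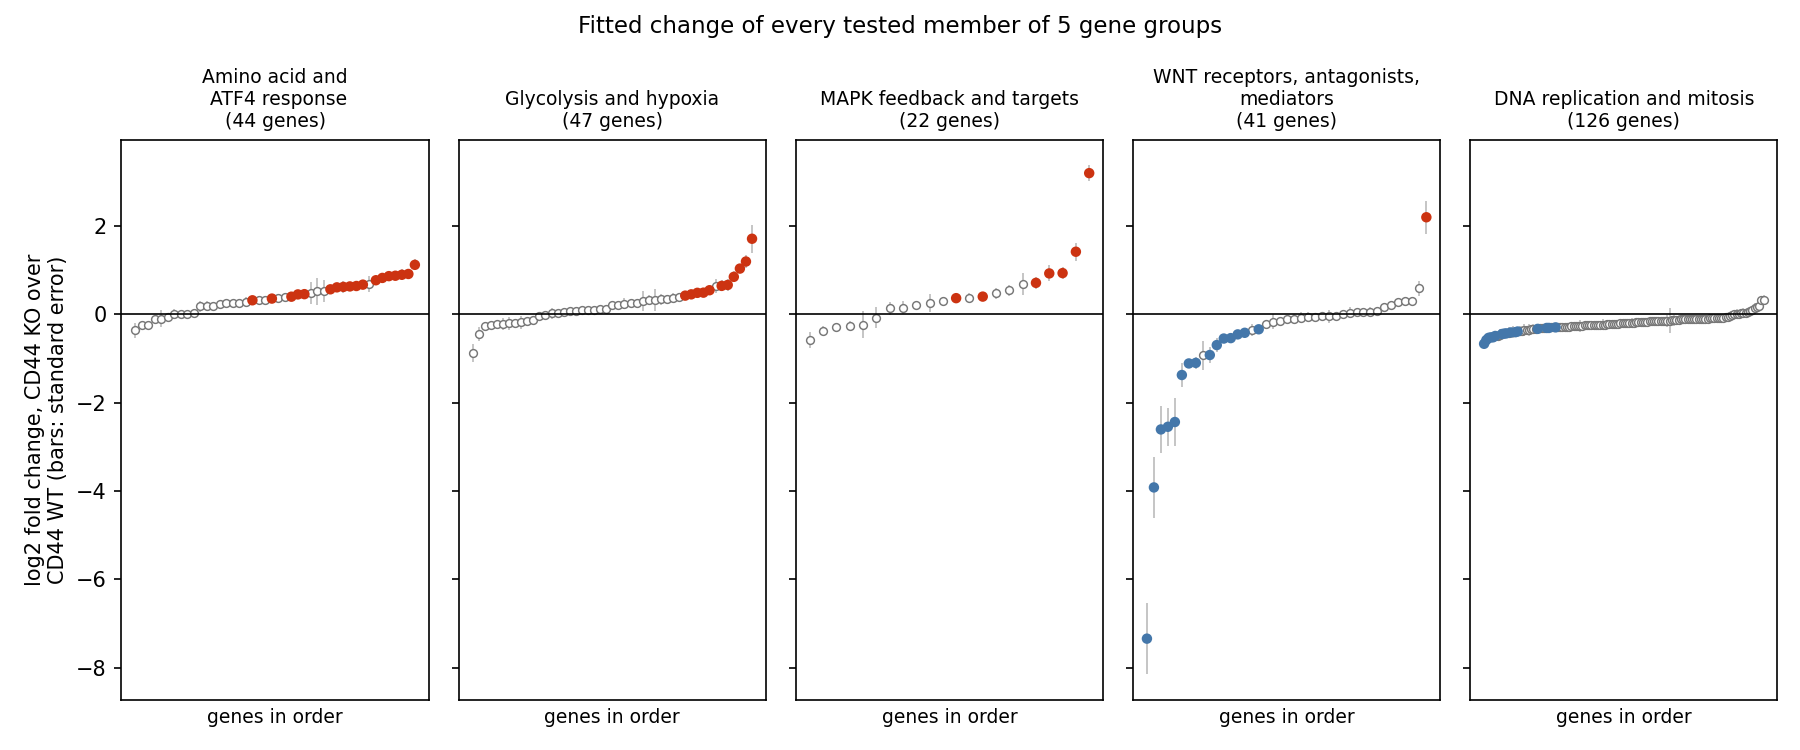
Fitted log2 fold change of every tested member of 5 gene groups, in order of size within each panel, with bars of 1 standard error. Filled points were called higher (red) or lower (blue) and open points were not called. All called members lie above 0 in the ATF4 (18), glycolysis and hypoxia (11) and MAPK (7) panels and below 0 in the DNA replication and mitosis panel, and DKK1 is the called WNT gene above 0.

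Called genes of the WNT pathway were lower, with 1 exception. WNT ligands bind Frizzled and ROR receptors, beta-catenin then joins TCF and LEF factors, and AXIN2 and NKD1 are feedback inhibitors that the pathway switches on. Of the 3 WNT lists, 2 of 7 ligands, 9 of 23 receptors and antagonists and 6 of 18 mediators and targets were lower, and 1 receptor or antagonist was higher. Outside the 4 stretches 1 of 5, 8 of 21 and 5 of 17 were lower. The median log2 fold changes of the 3 lists were -0.44, -0.11 and -0.10. When 1 library was dropped, WNT ligands had 0 to 1 higher (1 without CD44 KO replicate 2 or CD44 WT replicate 3) and 1 to 3 lower (1 without CD44 KO replicate 1 or CD44 WT replicate 2, 3 without CD44 WT replicate 3). Receptors and antagonists then had 0 to 1 higher (0 in 4 of 6 fits) and 1 to 9 lower (1 without CD44 KO replicate 3). Mediators and targets then had 0 to 1 higher (1 without CD44 WT replicate 3) and 2 to 6 lower (2 in 3 of 6 fits).

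Of the ligands, WNT5A, which signals through ROR receptors, stood at 22.7, 18.8 and 16.3 CPM in the 3 CD44 WT libraries and 9.68, 9.45 and 8.79 CPM in the 3 CD44 KO libraries (log2 fold change -1.05, standard error 0.145, adjusted p = 0.000719). WNT6 fell from 2.41 ± 0.846 to 0.369 ± 0.172 CPM (log2 fold change -2.64, standard error 0.434, adjusted p = 0.00204), on chromosome 2. ROR1 fell from 31.6 ± 6.95 to 19.6 ± 1.97 CPM (log2 fold change -0.69, standard error 0.154, adjusted p = 0.00952) and ROR2 from 2.49 ± 1.3 to 0.387 ± 0.237 CPM (log2 fold change -2.60, standard error 0.538, adjusted p = 0.00655). LGR4, a receptor of R-spondins, read 235, 227 and 208 CPM in the 3 CD44 WT libraries and 87.8, 115 and 108 CPM in the 3 CD44 KO libraries (log2 fold change -1.11, standard error 0.0954, adjusted p = 3.9e-05). FZD6, FZD7 and FZD8 fell by 0.54, 0.45 and 0.92 on the log2 scale. The secreted antagonist SFRP2 fell from 5.82 ± 4.45 to 0.357 ± 0.249 CPM (log2 fold change -3.92, standard error 0.685, adjusted p = 0.00279), and the antagonist DKK1 rose from 0.414 ± 0.12 to 1.92 ± 0.365 CPM (log2 fold change 2.20, standard error 0.368, adjusted p = 0.0022). LEF1, the transcription factor partner of beta-catenin, had 116, 75 and 28 counts in the CD44 WT libraries and 0, 0 and 1 counts in the CD44 KO libraries, or 219 against 1 in all, a ratio of 230 with a 95% counting interval of 40.9 to 9137. TCF7L1, a related factor on chromosome 2, fell from 15.3 ± 1.61 to 7.17 ± 0.401 CPM (log2 fold change -1.10, standard error 0.138, adjusted p = 0.000409), AXIN2 from 6.53 ± 2.4 to 2.54 ± 0.212 CPM (log2 fold change -1.37, standard error 0.281, adjusted p = 0.00628) and NKD1 from 2.74 ± 1.47 to 0.528 ± 0.404 CPM (log2 fold change -2.44, standard error 0.545, adjusted p = 0.00977). CTNNB1, beta-catenin, went from 512 ± 4.86 to 491 ± 8.65 CPM and was not called (adjusted p = 0.51). WNT5A, LGR4, LEF1 and TCF7L1 passed in all 6 fits without 1 library. WNT6, ROR1, ROR2, FZD6, FZD7, FZD8, SFRP2, DKK1, AXIN2 and NKD1 dropped out in 2 to 5 of 6 fits, with an adjusted p of up to 0.0484 for NKD1 without CD44 KO replicate 2.

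Of 15 ligands of the TGF-beta and BMP family 1 rose and 3 fell. INHBB and INHBA, the subunits of activins, fell. INHBB, on chromosome 2, stood at 55.1, 41.9 and 22.5 CPM in the 3 CD44 WT libraries and 6.18, 4.54 and 7.9 CPM in the 3 CD44 KO libraries (log2 fold change -2.71, standard error 0.307, adjusted p = 0.000217), and INHBA fell from 2.83 ± 1.1 to 0.444 ± 0.0783 CPM (log2 fold change -2.67, standard error 0.41, adjusted p = 0.00133). BMP4 fell from 26.6 ± 6.24 to 11.5 ± 2.32 CPM (log2 fold change -1.22, standard error 0.192, adjusted p = 0.00157) and the inhibin subunit gene INHBE rose from 130 ± 16.1 to 238 ± 25.8 CPM (log2 fold change 0.87, standard error 0.101, adjusted p = 0.000251). TGFB1 went from 289 ± 18 to 343 ± 18.3 CPM and was not called (adjusted p = 0.0291). Of 14 receptors 3 were higher and 2 lower. TGFBR2 rose from 98.8 ± 7.04 to 138 ± 11.8 CPM (log2 fold change 0.49, standard error 0.081, adjusted p = 0.0022), BMPR1B from 0.679 ± 0.39 to 2.54 ± 0.845 CPM (log2 fold change 1.92, standard error 0.412, adjusted p = 0.00796) and the co-receptor gene RGMB from 24.7 ± 0.681 to 33.7 ± 3.24 CPM (log2 fold change 0.45, standard error 0.097, adjusted p = 0.00812). BAMBI, a decoy receptor, fell from 42.4 ± 9.22 to 15.7 ± 1.43 CPM (log2 fold change -1.44, standard error 0.15, adjusted p = 0.000131), and TGFBR3, betaglycan, from 25.5 ± 1.26 to 15.7 ± 2.1 CPM (log2 fold change -0.70, standard error 0.117, adjusted p = 0.0022). Leaving out any 1 library kept the call of INHBB, BMP4, INHBE and BAMBI. INHBA, TGFBR2, BMPR1B, RGMB and TGFBR3 missed the threshold in 1 to 6 of 6 fits, with an adjusted p of up to 0.0431 for BMPR1B without CD44 KO replicate 2. Without 1 library, the ligands had 1 to 2 higher (2 without CD44 KO replicate 3), against 1 higher and 2 lower of 14 outside the 4 stretches with all 6 libraries. The receptors then had 0 to 2 higher (0 without CD44 KO replicate 2 or 3) and 1 to 2 lower (1 in 3 of 6 fits).

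Antagonists and targets of this family gave a mixed picture. The shares called were 15.4% of antagonists and 23.8% of SMADs and targets, beside 10.4% of all genes tested. Of 13 antagonists 2 were lower: FSTL3, which traps activin, went from 16.8 ± 5.23 to 6.28 ± 1.01 CPM (log2 fold change -1.44, standard error 0.233, adjusted p = 0.00188), and LTBP1, which stores latent TGF-beta in the matrix and lies on chromosome 2, from 152 ± 27.3 to 86.5 ± 4.92 CPM (log2 fold change -0.81, standard error 0.116, adjusted p = 0.000897). Of 21 SMADs and targets, 2 were higher and 3 lower. PMEPA1, a feedback inhibitor of TGF-beta, fell from 31 ± 12 to 12.6 ± 0.436 CPM (log2 fold change -1.31, standard error 0.242, adjusted p = 0.00383), SMAD6 from 13.7 ± 0.809 to 8.79 ± 1.2 CPM (log2 fold change -0.64, standard error 0.142, adjusted p = 0.00904) and ID2, on chromosome 2, from 26.6 ± 7.15 to 13 ± 2.93 CPM (log2 fold change -1.04, standard error 0.205, adjusted p = 0.00513). ID1, a BMP target, rose from 85.6 ± 5.58 to 126 ± 6.65 CPM (log2 fold change 0.56, standard error 0.072, adjusted p = 0.000455) and the co-repressor gene TGIF1 from 48.7 ± 4.18 to 68.5 ± 2.12 CPM (log2 fold change 0.49, standard error 0.0803, adjusted p = 0.00197). SMAD3 went from 93 ± 4.2 to 97.2 ± 1.61 CPM and was not called (adjusted p = 0.526). In the Notch list 2 of 21 were lower, HEYL (log2 fold change -1.32) and MAML1 (-0.40), or 9.52% called beside 10.4% of all genes tested. Of the Hedgehog factors GLI3 went from 58.9 ± 5.73 to 46 ± 4.45 CPM (adjusted p = 0.0257). The call of LTBP1 and ID1 held with any 1 library left out. FSTL3, PMEPA1, SMAD6, ID2, TGIF1, HEYL and MAML1 lost the call in 1 to 6 of 6 fits, with an adjusted p of up to 0.0422 for HEYL without CD44 KO replicate 2. With 1 library left out, the antagonists had 0 to 1 higher (1 without CD44 WT replicate 3) and 1 to 5 lower (1 in 3 of 6 fits, 5 without CD44 WT replicate 3), against 0 higher and 1 lower of 12 outside the 4 stretches with all 6 libraries. SMADs and targets then had 1 to 2 higher (1 without CD44 KO replicate 2) and 0 to 6 lower (0 in 4 of 6 fits, 6 without CD44 WT replicate 3), against 2 higher and 2 lower of 19 outside the 4 stretches with all 6 libraries. The Notch list then had 0 to 1 higher (1 without CD44 KO replicate 3 or CD44 WT replicate 2) and 0 to 3 lower (0 without CD44 KO replicate 1, 3 without CD44 WT replicate 3).

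Cytokine genes were read as ligands and as receptors. Chemokines attract leukocytes, and 2 of the 6 tested were lower with 0 higher. CCL2, which attracts monocytes, stood at 6.4, 6.15 and 4.22 CPM in the 3 CD44 WT libraries and 1.75, 2.43 and 1.51 CPM in the 3 CD44 KO libraries (log2 fold change -1.54, standard error 0.256, adjusted p = 0.00217), and CCL26 fell from 2.08 ± 0.39 to 0.402 ± 0.139 CPM (log2 fold change -2.40, standard error 0.374, adjusted p = 0.00146). CXCL12, the ligand of CXCR4, went from 63.5 ± 21.1 to 36.1 ± 5.71 CPM and missed the threshold (adjusted p = 0.0157). Of the 8 ligands of the TNF family, 4 were lower. CD70, the ligand of CD27, read 14, 11.1 and 6.06 CPM in the 3 CD44 WT libraries and 0.501, 0.894 and 0.71 CPM in the 3 CD44 KO libraries. Its CD44 KO libraries lay far below (log2 fold change -3.85, standard error 0.366, adjusted p = 7.27e-05). TNFSF9, the 4-1BB ligand, fell from 69.8 ± 17.4 to 33.1 ± 3.56 CPM (log2 fold change -1.07, standard error 0.159, adjusted p = 0.0011) and TNFSF12, which encodes TWEAK, from 1.82 ± 0.185 to 0.374 ± 0.182 CPM (log2 fold change -2.22, standard error 0.394, adjusted p = 0.00302). TNFSF15 had 39, 18 and 9 counts in the CD44 WT libraries and 0, 0 and 0 counts in the CD44 KO libraries, which is at least 23.1-fold lower when the group at 0 is set to a floor of 3 counts. CSF1, which drives macrophages, went from 98.2 ± 29.8 to 84.6 ± 4.71 CPM and was not called (adjusted p = 0.425). CD70 and TNFSF9 passed in all 6 fits without 1 library. CCL2, CCL26, TNFSF12 and TNFSF15 lost the call, or a gene fell below the filter, in 1 to 3 of 6 fits, with an adjusted p of up to 0.0137 for CCL2 without CD44 WT replicate 2. In the fits without 1 library, chemokines had 1 to 4 lower (1 in 4 of 6 fits, 4 without CD44 WT replicate 3). TNF family ligands then had 2 to 5 lower (2 without CD44 WT replicate 2, 5 without CD44 WT replicate 3).

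Of 45 cytokine receptors 7 rose and 3 fell. IL13RA2, a decoy receptor of interleukin 13, stood at 12.2, 18.3 and 22.5 CPM in the 3 CD44 WT libraries and 53, 62 and 54 CPM in the 3 CD44 KO libraries (log2 fold change 1.69, standard error 0.173, adjusted p = 0.000116). IL20RB rose from 4.27 ± 1 to 17.6 ± 3.6 CPM (log2 fold change 2.04, standard error 0.207, adjusted p = 0.000108), IL1RAP, the shared chain of interleukin 1 receptors, from 11.2 ± 1.45 to 32 ± 6.67 CPM (log2 fold change 1.52, standard error 0.161, adjusted p = 0.000142), IL21R from 78.8 ± 10.7 to 136 ± 9.68 CPM (log2 fold change 0.79, standard error 0.0982, adjusted p = 0.000383) and FAS, a death receptor, from 6.52 ± 1.01 to 12.2 ± 1.04 CPM (log2 fold change 0.91, standard error 0.157, adjusted p = 0.00265). CSF2RA, a receptor chain of GM-CSF, fell from 7.42 ± 2.47 to 0.754 ± 0.215 CPM (log2 fold change -3.30, standard error 0.327, adjusted p = 9.39e-05), a value that is uncertain because the gene has copies on both sex chromosomes. IL1R1, on chromosome 2, fell from 36.6 ± 3.74 to 25.1 ± 1.25 CPM (log2 fold change -0.55, standard error 0.1, adjusted p = 0.00361). Of 18 feedback targets of NF-kappaB 2 were lower, BIRC3 (log2 fold change -1.03) and NFKB1 (-0.39). That is 11.1% called, and of the interferon-stimulated genes 13% were called, beside 10.4% of all genes tested. Interferon-stimulated genes had 4 higher and 2 lower of 46, with GBP2 from 0.507 ± 0.218 to 5.04 ± 1.69 CPM (log2 fold change 3.29, standard error 0.378, adjusted p = 0.000235) and HERC6 from 0.495 ± 0.122 to 5.74 ± 0.491 CPM (log2 fold change 3.53, standard error 0.274, adjusted p = 2.01e-05) rising and OAS1 from 7.84 ± 1.29 to 3.63 ± 0.37 CPM (log2 fold change -1.11, standard error 0.19, adjusted p = 0.00248) falling. The complement gene C3 fell from 21.8 ± 11.7 to 1.88 ± 0.809 CPM (log2 fold change -3.48, standard error 0.464, adjusted p = 0.000583). Leaving out any 1 library kept the call of IL13RA2, IL20RB, IL1RAP, IL21R, CSF2RA, GBP2, HERC6 and C3. FAS, IL1R1, BIRC3, NFKB1 and OAS1 missed the threshold in 4 to 5 of 6 fits, with an adjusted p of up to 0.0317 for BIRC3 without CD44 WT replicate 2. Over the 6 fits that each dropped 1 library, cytokine receptors had 4 to 8 higher (4 in 4 of 6 fits, 8 without CD44 KO replicate 3 or CD44 WT replicate 3) and 1 to 4 lower (1 in 3 of 6 fits, 4 without CD44 WT replicate 3), against 7 higher and 2 lower of 42 outside the 4 stretches with all 6 libraries. NF-kappaB feedback targets then had 0 to 5 lower (0 in 5 of 6 fits, 5 without CD44 WT replicate 3). Interferon-stimulated genes then had 2 to 6 higher (2 without CD44 KO replicate 1 or 2, 6 without CD44 WT replicate 3) and 0 to 3 lower (0 in 3 of 6 fits, 3 without CD44 WT replicate 3), against 4 higher and 1 lower of 39 outside the 4 stretches with all 6 libraries.

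Integrins, the receptors for matrix proteins, had 5 higher and 2 lower members of 18 tested (3 and 2 of 15 outside the 4 stretches). ITGA4, whose product binds fibronectin and VCAM1 and which lies on chromosome 2, stood at 5.03, 13.2 and 25.6 CPM in the 3 CD44 WT libraries and 138, 133 and 126 CPM in the 3 CD44 KO libraries. The CD44 WT libraries differed among themselves by several fold and all lay below the CD44 KO libraries (log2 fold change 3.21, standard error 0.35, adjusted p = 0.000173). The collagen receptor genes ITGA1 (3.39 ± 1.48 to 19.3 ± 5.82 CPM, log2 fold change 2.53, standard error 0.289, adjusted p = 0.00023) and ITGA10 (13 ± 1.65 to 46.1 ± 8.03 CPM, log2 fold change 1.83, standard error 0.144, adjusted p = 2.13e-05) rose, as did the fibronectin receptor gene ITGA5 (429 ± 38 to 645 ± 31.4 CPM, log2 fold change 0.59, standard error 0.0765, adjusted p = 0.000495). ITGB3, the beta 3 chain that pairs with the alpha v chain, fell from 13 ± 3.18 to 4.01 ± 1.03 CPM (log2 fold change -1.71, standard error 0.232, adjusted p = 0.000665), and ITGA8 from 3.53 ± 1.7 to 0.317 ± 0.216 CPM (log2 fold change -3.39, standard error 0.526, adjusted p = 0.00142). Of 35 focal adhesion genes 1 rose and 5 fell: PXN, which encodes paxillin and lies on chromosome 12 beyond 120 Mb, rose from 219 ± 4.33 to 325 ± 17.5 CPM (log2 fold change 0.57, standard error 0.0627, adjusted p = 0.000185), and TNS3, a tensin, fell from 125 ± 15.5 to 72.7 ± 3.58 CPM (log2 fold change -0.79, standard error 0.0908, adjusted p = 0.000236). The call of ITGA4, ITGA1, ITGA10, ITGA5, ITGB3, ITGA8, PXN and TNS3 held with any 1 library left out. Of the focal adhesion genes 17.1% were called, beside 10.4% of all genes tested. Leaving out 1 library at a time, focal adhesion genes had 3 to 11 lower (3 in 3 of 6 fits, 11 without CD44 WT replicate 3), against 0 higher and 3 lower of 29 outside the 4 stretches with all 6 libraries.

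Adhesion molecules between cells followed no shared direction. In the immunoglobulin family 6 of 41 rose and 2 fell (19.5% called, beside 10.4% of all genes tested). ALCAM, also known as CD166, stood at 22.7, 33.8 and 49.4 CPM in the 3 CD44 WT libraries and 225, 255 and 202 CPM in the 3 CD44 KO libraries (log2 fold change 2.70, standard error 0.21, adjusted p = 2.01e-05). MCAM, or CD146, moved the other way, at 26.5, 20.6 and 8.79 CPM in the 3 CD44 WT libraries and 1, 1.53 and 1.69 CPM in the 3 CD44 KO libraries (log2 fold change -3.72, standard error 0.405, adjusted p = 0.000173), with CD44 WT replicate 3 lowest in its group. VCAM1, the partner of the integrin that holds ITGA4, rose from 2.61 ± 1.81 to 11.6 ± 4.73 CPM (log2 fold change 2.12, standard error 0.438, adjusted p = 0.00652), and BCAM, a laminin receptor, fell from 61 ± 6.43 to 27.8 ± 4.83 CPM (log2 fold change -1.13, standard error 0.126, adjusted p = 0.000196). Protocadherins had 5 higher and 0 lower of 23, with a median of 0.72. PCDH18 had 1, 1 and 0 counts in the CD44 WT libraries and 86, 146 and 89 counts in the CD44 KO libraries, 2 against 321 in all, a ratio of 153 (95% counting interval 41.9 to 1266), and PCDH9, on chromosome 13, had 0 against 79 counts, at least 25-fold higher. Neighbouring genes of the gamma cluster share exons, so that PCDHGA11, which rose by 1.02, is uncertain. Of the cadherins CDH11 fell from 157 ± 56 to 60.6 ± 9.61 CPM (log2 fold change -1.38, standard error 0.223, adjusted p = 0.00182), CDH18 rose from 5.83 ± 1.09 to 16.1 ± 1.47 CPM (log2 fold change 1.48, standard error 0.164, adjusted p = 0.000189) and the desmosomal gene DSG2 fell from 3.66 ± 2.29 to 0.213 ± 0.369 CPM (log2 fold change -3.83, standard error 0.797, adjusted p = 0.00683). Of tight junction genes, CLDN1 rose from 0.672 ± 0.414 to 11.7 ± 3.1 CPM (log2 fold change 4.06, standard error 0.34, adjusted p = 3.3e-05) and CLDN4 fell from 11.6 ± 2.87 to 4.55 ± 0.238 CPM (log2 fold change -1.35, standard error 0.202, adjusted p = 0.00116). No single library decided the call of ALCAM, MCAM, BCAM, PCDH18, CDH18, CLDN1 and CLDN4. VCAM1, PCDH9, PCDHGA11, CDH11 and DSG2 lost the call, or a gene fell below the filter, in 2 to 6 of 6 fits, with an adjusted p of up to 0.044 for PCDHGA11 without CD44 KO replicate 3. As single libraries were left out, the immunoglobulin family had 2 to 7 higher (2 without CD44 KO replicate 2, 7 without CD44 WT replicate 3) and 2 to 9 lower (9 without CD44 WT replicate 3). Protocadherins then had 3 to 6 higher (3 in 3 of 6 fits, 6 without CD44 WT replicate 3).

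Guidance cues steer growing axons and vessels. Among slits, netrins and their receptors 4 rose and 2 fell of 13. SLIT3 fell from 9.96 ± 7.9 to 0.289 ± 0.262 CPM (log2 fold change -5.00, standard error 0.808, adjusted p = 0.00184), while its relative SLIT2 went from 1 count to 54, a ratio of 51.4 (8.83 to 2065). The receptor gene UNC5B rose from 77.7 ± 17.7 to 248 ± 24 CPM (log2 fold change 1.67, standard error 0.143, adjusted p = 3.87e-05) and ROBO1 from 1.76 ± 0.733 to 4.89 ± 1.39 CPM (log2 fold change 1.46, standard error 0.323, adjusted p = 0.00941). Of 22 semaphorins and plexins 3 fell, SEMA3B (log2 fold change -1.34), SEMA3F (-1.05) and SEMA6B (-1.18), and PLXNA4 rose (1.33). That is 18.2% called, beside 10.4% of all genes tested. Of 13 ephrins and Eph receptors 3 fell, with EPHB3 from 29.8 ± 11.9 to 6.2 ± 1.71 CPM (log2 fold change -2.28, standard error 0.299, adjusted p = 0.000533) and EPHA4, on chromosome 2, from 7.17 ± 3.6 to 1.22 ± 0.1 CPM (log2 fold change -2.57, standard error 0.402, adjusted p = 0.00153). UNC5B and EPHB3 stayed called with any 1 library left out. SLIT3, SLIT2, ROBO1, SEMA3B, SEMA3F, SEMA6B, PLXNA4 and EPHA4 lost the call, or a gene fell below the filter, in 1 to 5 of 6 fits, with an adjusted p of up to 0.051 for ROBO1 without CD44 KO replicate 2. Across the fits on 5 libraries, slits, netrins and receptors had 1 to 3 higher (1 in 3 of 6 fits) and 1 to 2 lower (1 in 4 of 6 fits). Semaphorins and plexins then had 0 to 1 higher (0 in 4 of 6 fits) and 0 to 5 lower (0 without CD44 WT replicate 2, 5 without CD44 WT replicate 3). Ephrins and Eph receptors then had 1 to 4 lower (1 without CD44 KO replicate 2, 4 without CD44 WT replicate 3), against 1 higher and 2 lower of 11 outside the 4 stretches with all 6 libraries.

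**Figure D5:**
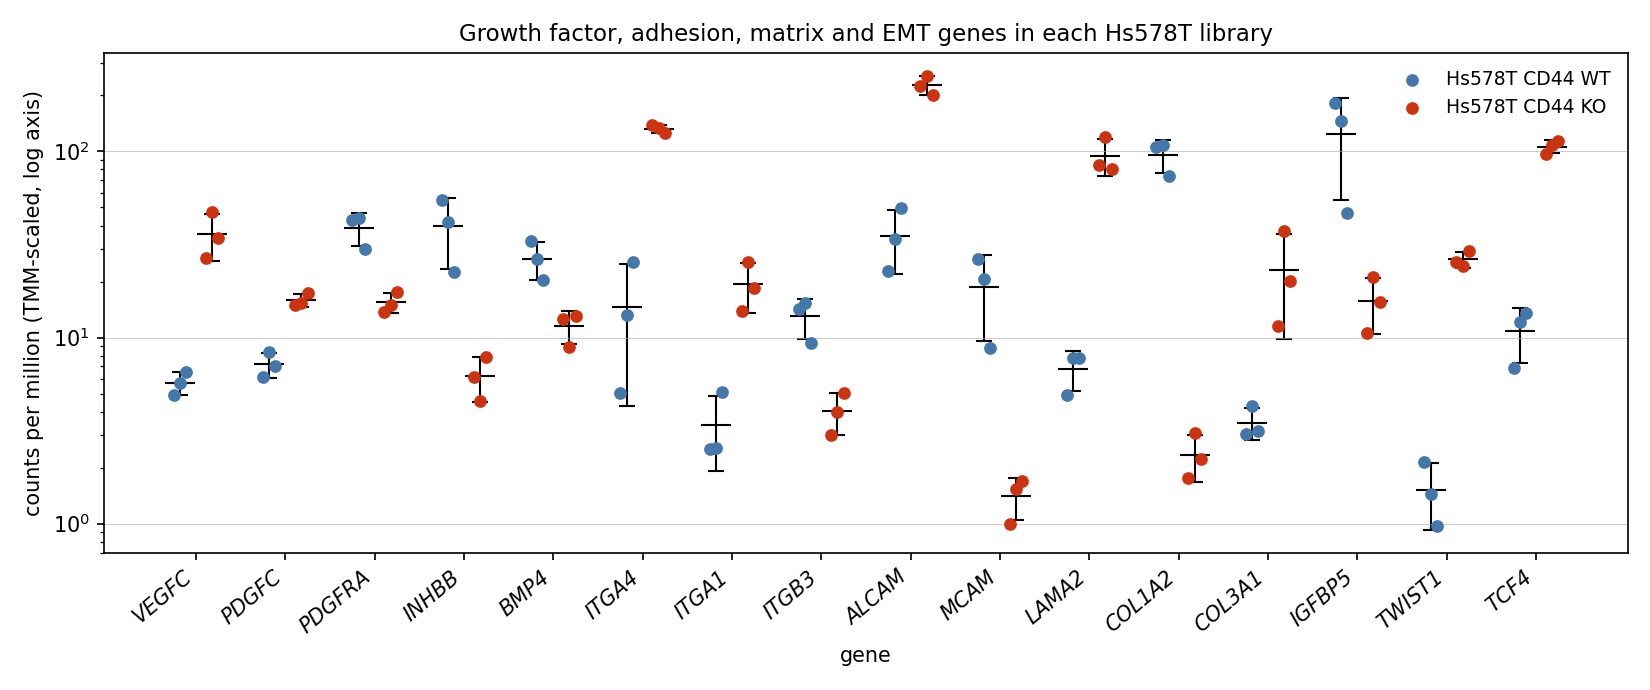
Scaled counts (CPM) on a log axis for 16 growth factor, adhesion, matrix and EMT genes in each Hs578T library, CD44 WT in blue and CD44 KO in red, with a bar at the mean and error bars of 1 SD (n = 3). COL1A2 drops from 96 to 2.35 CPM and ITGA4, LAMA2 and TWIST1 rise, and the spread among CD44 WT libraries is wide for ITGA4, MCAM and IGFBP5.

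Collagens went both ways, 5 higher and 7 lower of 28 (3 and 6 of 22 outside the 4 stretches). COL1A2, the alpha 2 chain of type I collagen, stood at 106, 108 and 73.5 CPM in the 3 CD44 WT libraries and 1.75, 3.07 and 2.22 CPM in the 3 CD44 KO libraries. This is the largest fall among the collagens (log2 fold change -5.32, standard error 0.209, adjusted p = 2.49e-07). COL1A1, the other chain of the same trimer, went from 3546 ± 769 to 3707 ± 134 CPM and was not called (log2 fold change 0.064, standard error 0.129, adjusted p = 0.765). COL3A1, on chromosome 2, read 3.02, 4.27 and 3.16 CPM in the 3 CD44 WT libraries and 11.5, 37.4 and 20.1 CPM in the 3 CD44 KO libraries (log2 fold change 2.74, standard error 0.387, adjusted p = 0.000829), with the CD44 KO libraries spread over several fold. COL5A2, beside it on chromosome 2, rose from 18.9 ± 4.37 to 44.3 ± 19.1 CPM (log2 fold change 1.24, standard error 0.265, adjusted p = 0.00769), and COL14A1 fell from 21.8 ± 11.9 to 2.87 ± 1.84 CPM (log2 fold change -2.87, standard error 0.479, adjusted p = 0.0022). Of the enzymes that modify collagen 4 of 21 rose, among them the lysyl oxidase LOX (77.3 ± 4.16 to 121 ± 26 CPM, log2 fold change 0.65, standard error 0.127, adjusted p = 0.00505), and LOXL3, on chromosome 2, fell from 80.1 ± 21.3 to 9.3 ± 1.33 CPM (log2 fold change -3.10, standard error 0.197, adjusted p = 4.27e-06). Each fit that left out 1 library still called COL1A2, COL3A1 and LOXL3. COL5A2, COL14A1 and LOX dropped out in 2 to 4 of 6 fits, with an adjusted p of up to 0.0408 for COL5A2 without CD44 WT replicate 2. When 1 library was dropped, collagens had 1 to 5 higher (1 in 3 of 6 fits) and 2 to 12 lower (2 without CD44 KO replicate 1 or 3, 12 without CD44 WT replicate 3). Collagen-modifying enzymes then had 2 to 5 higher (2 in 4 of 6 fits, 5 without CD44 WT replicate 3) and 1 to 2 lower (2 without CD44 WT replicate 1 or 3), against 4 higher and 0 lower of 20 outside the 4 stretches with all 6 libraries.

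Other matrix genes varied as widely. LAMA2, a laminin chain of basement membranes, stood at 4.89, 7.77 and 7.73 CPM in the 3 CD44 WT libraries and 84.4, 119.9 and 80.9 CPM in the 3 CD44 KO libraries (log2 fold change 3.82, standard error 0.198, adjusted p = 1.52e-06), whereas LAMB3, a chain of laminin 332, fell from 104 ± 36.1 to 52 ± 3.47 CPM (log2 fold change -1.01, standard error 0.203, adjusted p = 0.00572). Of 43 matrix glycoproteins 5 rose and 7 fell, with CCN3 from 6.72 ± 1.86 to 23.3 ± 2.44 CPM (log2 fold change 1.81, standard error 0.183, adjusted p = 0.000108) rising and EFEMP1, on chromosome 2, from 63.3 ± 32.7 to 17.6 ± 3.41 CPM (log2 fold change -1.84, standard error 0.332, adjusted p = 0.00331) and SPOCK1 from 53.9 ± 29 to 12.5 ± 3.86 CPM (log2 fold change -2.12, standard error 0.358, adjusted p = 0.00234) falling. FN1, fibronectin, went from 4770 ± 745 to 3790 ± 1083 CPM and was not called (adjusted p = 0.2). Among 17 proteoglycans 5 fell and 1 rose (3 and 1 of 12 outside the 4 stretches). The glypican gene GPC4, on chromosome X beyond 120 Mb, had 471, 215 and 112 counts in the CD44 WT libraries and 0, 0 and 1 counts in the CD44 KO libraries, 798 against 1 in all, a ratio of 839 (95% counting interval 150 to 33185). Among syndecans, SDC2 fell from 123 ± 43.9 to 57.1 ± 12.5 CPM (log2 fold change -1.11, standard error 0.235, adjusted p = 0.00761) and SDC1, on chromosome 2, from 263 ± 4.92 to 185 ± 9.63 CPM (log2 fold change -0.51, standard error 0.0621, adjusted p = 0.000325), while LUM, lumican, rose from 2.58 ± 0.68 to 11.6 ± 3.98 CPM (log2 fold change 2.17, standard error 0.276, adjusted p = 0.000446). No single library decided the call of LAMA2, CCN3, GPC4, SDC1 and LUM. LAMB3, EFEMP1, SPOCK1 and SDC2 missed the threshold in 3 to 5 of 6 fits, with an adjusted p of up to 0.035 for SDC2 without CD44 WT replicate 2. Without 1 library, matrix glycoproteins had 1 to 5 higher (1 without CD44 KO replicate 3 or CD44 WT replicate 2) and 0 to 12 lower (0 without CD44 WT replicate 2, 12 without CD44 WT replicate 3). Proteoglycans then had 1 to 2 higher (2 without CD44 WT replicate 3) and 2 to 6 lower (2 without CD44 KO replicate 1 or CD44 WT replicate 2, 6 without CD44 WT replicate 3).

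Enzymes that build and trim the sugar chains of proteoglycans were 4 higher and 4 lower of 33. SULF2, which removes sulfate from heparan sulfate outside the cell, fell from 7.67 ± 3.56 to 0.385 ± 0.22 CPM (log2 fold change -4.21, standard error 0.479, adjusted p = 0.000223), and XYLT1, which starts the chains, from 15.2 ± 7.17 to 1.71 ± 0.693 CPM (log2 fold change -3.18, standard error 0.382, adjusted p = 0.000307). CHSY3, a chondroitin synthase, rose from 0.144 ± 0.131 to 5.6 ± 0.341 CPM (log2 fold change 5.27, standard error 0.44, adjusted p = 3.3e-05), and UST and DSE, which act on chondroitin and dermatan sulfate, rose by 1.05 and 0.70 on the log2 scale. Of 13 genes of plasminogen activation and serine proteases, 3 rose and 5 fell. PLAT, the tissue plasminogen activator, fell from 44.7 ± 5.25 to 22.3 ± 2.38 CPM (log2 fold change -1.01, standard error 0.116, adjusted p = 0.000233), as did HTRA1 (log2 fold change -1.39, standard error 0.279, adjusted p = 0.00569). The related neighbours DPP4 and FAP on chromosome 2 moved in opposite directions, DPP4 from 7.15 ± 3.72 to 1.69 ± 0.303 CPM (log2 fold change -2.10, standard error 0.383, adjusted p = 0.0035) and FAP from 0.243 ± 0.171 to 4.86 ± 0.799 CPM (log2 fold change 4.27, standard error 0.383, adjusted p = 5.02e-05). ADAMTS1 and ADAMTS5, proteoglycan-cleaving proteases that lie side by side on chromosome 21, rose from 0.894 ± 0.597 to 8.54 ± 2.42 CPM (log2 fold change 3.29, standard error 0.371, adjusted p = 0.00021) and 0.202 ± 0.199 to 5.12 ± 0.557 CPM (log2 fold change 4.51, standard error 0.409, adjusted p = 5.35e-05). TIMP3, an inhibitor of matrix proteases, rose from 69.1 ± 6.85 to 117 ± 24.1 CPM (log2 fold change 0.76, standard error 0.134, adjusted p = 0.00284), and MMP15 fell by 0.83 on the log2 scale. SULF2, XYLT1, CHSY3, UST, DSE, PLAT, FAP, ADAMTS1 and ADAMTS5 stayed called with any 1 library left out. HTRA1, DPP4, TIMP3 and MMP15 lost the call in 3 to 5 of 6 fits, with an adjusted p of up to 0.0349 for MMP15 without CD44 WT replicate 2. With 1 library left out, sugar chain enzymes had 2 to 7 lower (2 in 4 of 6 fits, 7 without CD44 WT replicate 3). Plasminogen and serine protease genes then had 1 to 5 lower (1 in 3 of 6 fits), against 2 higher and 4 lower of 11 outside the 4 stretches with all 6 libraries.

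The epithelial to mesenchymal transition (EMT), in which epithelial cells take on fibroblast-like traits, was read in a list of its factors and of epithelial genes. Of 17 tested members of this mixed list, 5 were higher and 2 lower. TWIST1, a transcription factor of this program, stood at 2.16, 1.45 and 0.967 CPM in the 3 CD44 WT libraries and 25.5, 24.2 and 29.1 CPM in the 3 CD44 KO libraries. The groups were widely apart (log2 fold change 4.07, standard error 0.211, adjusted p = 1.52e-06). TCF4, an E protein that pairs with TWIST1, read 6.83, 12.1 and 13.6 CPM in the 3 CD44 WT libraries and 97.2, 108 and 114 CPM in the 3 CD44 KO libraries (log2 fold change 3.31, standard error 0.18, adjusted p = 1.81e-06). SNAI2, or Slug, rose from 42.1 ± 6.47 to 59.5 ± 3.66 CPM (log2 fold change 0.50, standard error 0.108, adjusted p = 0.00835). The splicing factor ESRP1, known from epithelial cells, also rose, from 4.81 ± 0.499 to 9.45 ± 1.85 CPM (log2 fold change 0.98, standard error 0.187, adjusted p = 0.00446), and the epithelial factors GRHL1, on chromosome 2, and ELF3 fell by 0.80 and 2.65 on the log2 scale. ZEB1 and CDH2, N-cadherin, went from 61.5 ± 1.96 to 71.4 ± 6.86 CPM and from 148 ± 13 to 174 ± 7.4 CPM and missed the threshold (adjusted p = 0.0858 and 0.05). Keratins fell in 4 of 12 members and rose in 0: KRT80 went from 31.8 ± 14.7 to 6.28 ± 2.58 CPM (log2 fold change -2.38, standard error 0.363, adjusted p = 0.00129) and KRT75 from 10.3 ± 4.27 to 1.68 ± 0.158 CPM (log2 fold change -2.63, standard error 0.302, adjusted p = 0.000235), and KRT81, with close copies, from 5.58 ± 3 to 1.27 ± 0.388 CPM. The abundant keratins KRT8 and KRT18 went from 592 ± 28 to 555 ± 20.2 CPM and 420.1 ± 7.87 to 388 ± 16.3 CPM and were not called (adjusted p = 0.333 and 0.211). Each fit that left out 1 library still called TWIST1, TCF4, GRHL1, KRT80 and KRT75. SNAI2, ESRP1, ELF3 and KRT81 lost the call, or a gene fell below the filter, in 4 to 5 of 6 fits, with an adjusted p of up to 0.0394 for SNAI2 without CD44 WT replicate 2. In the fits without 1 library, the list of EMT factors and epithelial genes had 2 to 6 higher (2 without CD44 KO replicate 2 or CD44 WT replicate 2, 6 without CD44 WT replicate 3) and 1 to 4 lower (1 in 5 of 6 fits, 4 without CD44 WT replicate 3), against 5 higher and 1 lower of 13 outside the 4 stretches with all 6 libraries. Keratins then had 0 to 1 higher (1 without CD44 WT replicate 3) and 2 to 6 lower (2 in 5 of 6 fits, 6 without CD44 WT replicate 3).

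Other transcription factors supplied several of the largest changes. HDAC9, a class IIa histone deacetylase whose gene neighbours TWIST1 on chromosome 7, stood at 0.863, 0.854 and 0.527 CPM in the 3 CD44 WT libraries and 80.8, 105 and 88.4 CPM in the 3 CD44 KO libraries (log2 fold change 6.90, standard error 0.182, adjusted p = 7.04e-09). MEF2C, a factor that such deacetylases bind, rose from 1.69 ± 0.684 to 7.58 ± 0.453 CPM (log2 fold change 2.17, standard error 0.251, adjusted p = 0.000243), and NR2F1, an orphan nuclear receptor, from 16.6 ± 4.19 to 58.6 ± 10.6 CPM (log2 fold change 1.83, standard error 0.18, adjusted p = 8.94e-05). MAF, a large AP-1 factor, fell from 4.5 ± 0.62 to 0.128 ± 0.0391 CPM (log2 fold change -5.03, standard error 0.363, adjusted p = 1.09e-05), the retinoic acid receptor gene RARB from 2.31 ± 0.304 to 0.151 ± 0.0588 CPM (log2 fold change -3.83, standard error 0.41, adjusted p = 0.000157), TP63, a p53 relative of basal epithelial cells, from 15.1 ± 5.62 to 0.857 ± 0.369 CPM (log2 fold change -4.08, standard error 0.35, adjusted p = 3.9e-05) and PROX1, a factor of lymphatic endothelium, from 16.4 ± 9.35 to 0.739 ± 0.289 CPM (log2 fold change -4.41, standard error 0.49, adjusted p = 0.000192). Of 28 Hippo pathway targets 1 rose and 2 fell, or 10.7% called beside 10.4% of all genes tested. Among them CCN1 went from 50.8 ± 15.3 to 24.5 ± 5.93 CPM (log2 fold change -1.05, standard error 0.22, adjusted p = 0.00694). ZNF385D rose from 1.26 ± 0.632 to 29.2 ± 7.36 CPM (log2 fold change 4.52, standard error 0.288, adjusted p = 4.27e-06), and ZNF44, ZNF563 and ZNF799, which lie together on chromosome 19, fell by 2.38, 2.70 and 2.62 on the log2 scale. No single library decided the call of HDAC9, MEF2C, NR2F1, MAF, RARB, TP63, PROX1, ZNF385D and ZNF799. CCN1, ZNF44 and ZNF563 missed the threshold in 2 to 5 of 6 fits, with an adjusted p of up to 0.0321 for CCN1 without CD44 WT replicate 2. Over the 6 fits that each dropped 1 library, Hippo pathway targets had 0 to 2 higher (0 in 5 of 6 fits, 2 without CD44 WT replicate 3) and 1 to 4 lower (1 in 5 of 6 fits, 4 without CD44 WT replicate 3), against 1 higher and 1 lower of 26 outside the 4 stretches with all 6 libraries.

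A number of genes were nearly silent in 1 group. In 69 of the called genes 1 group held at most 3 counts over its 3 libraries, 39 of them in CD44 KO and 30 in CD44 WT. CREG1, a secreted glycoprotein, had 423, 253 and 99 counts in the CD44 WT libraries and 0, 0 and 0 counts in the CD44 KO libraries, so that it was at least 272-fold lower, and BEND4 had 0, 1 and 0 counts in the CD44 WT libraries and 173, 297 and 160 counts in the CD44 KO libraries, 1 against 630 in all, a ratio of 599 (95% counting interval 107 to 23701). VAT1L had 402 against 3 counts, a ratio of 141 (47.9 to 686). The cancer-testis gene MAGEA8, on chromosome X beyond 120 Mb and with close copies, had 626 against 2, a ratio of 329 (90.7 to 2724). Of 34 tested MAGE and cancer-testis genes 3 rose and 9 fell (1 and 2 of 17 outside the 4 stretches). In bulk RNA, fewer cells with a transcript and less of it per cell cannot be told apart. CREG1, BEND4, VAT1L and MAGEA8 stayed called with any 1 library left out. Leaving out 1 library at a time, MAGE and cancer-testis genes had 2 to 6 higher (6 without CD44 WT replicate 3) and 5 to 10 lower (5 without CD44 WT replicate 2, 10 without CD44 WT replicate 3).

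Signalling enzymes and channels added large single changes. PDE3A, which breaks down cyclic AMP and cyclic GMP, stood at 0.288, 0.256 and 0.352 CPM in the 3 CD44 WT libraries and 20.1, 26.3 and 21.3 CPM in the 3 CD44 KO libraries (log2 fold change 6.20, standard error 0.236, adjusted p = 2.33e-07), and 3 of 13 phosphodiesterases rose with 0 falling. The potassium channels had 5 higher and 5 lower of 26, with KCND2 rising from 0.111 ± 0.0565 to 5.85 ± 0.592 CPM (log2 fold change 5.63, standard error 0.358, adjusted p = 4.27e-06) and KCNMA1, the large-conductance calcium-activated channel, from 119 ± 7.22 to 177 ± 7.88 CPM (log2 fold change 0.58, standard error 0.0683, adjusted p = 0.00028). DPYD, the first enzyme of pyrimidine breakdown, rose from 0.643 ± 0.102 to 16.1 ± 4.02 CPM (log2 fold change 4.62, standard error 0.273, adjusted p = 2.8e-06). ADGRG2, an adhesion G protein-coupled receptor, fell from 21.2 ± 7.42 to 0.189 ± 0.146 CPM (log2 fold change -6.81, standard error 0.444, adjusted p = 4.88e-06). Leaving out any 1 library kept the call of PDE3A, KCND2, KCNMA1, DPYD and ADGRG2. As single libraries were left out, phosphodiesterases had 0 to 3 lower (3 without CD44 WT replicate 3). Potassium channels then had 3 to 6 higher (3 in 4 of 6 fits, 6 without CD44 WT replicate 3), against 5 higher and 3 lower of 23 outside the 4 stretches with all 6 libraries.

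The cell cycle genes that passed in the lists of replication and mitosis were lower. Of 56 replication and G1/S genes 7 were lower and 0 higher (median log2 fold change -0.23), and of 70 mitotic genes 9 were lower and 0 higher (median -0.18). In all 12.5% and 12.9% of these lists were called, beside 10.4% of all genes tested, of which 5.18% were called lower. Called or not, 48 of the 56 and 64 of the 70 had a fitted change below 0. The summed level of the replication list was 5700 to 6325 CPM in CD44 WT and 4650 to 5591 CPM in CD44 KO. For the mitotic list it was 12185 to 12856 and 10756 to 11329 CPM. These shifts were small and were not tested as a set. Outside the 4 stretches 5 of 52 and 4 of 63 were lower, beside 477 of all 13085 genes tested there. RRM2, a subunit of ribonucleotide reductase on chromosome 2, stood at 198, 196 and 259.6 CPM in the 3 CD44 WT libraries and 155, 132 and 151 CPM in the 3 CD44 KO libraries (log2 fold change -0.58, standard error 0.108, adjusted p = 0.00384). CHAF1A, a histone chaperone subunit, fell from 74.9 ± 4.09 to 52.5 ± 8.33 CPM (log2 fold change -0.52, standard error 0.107, adjusted p = 0.00634), ORC1, of the origin recognition complex, from 60.2 ± 1.78 to 42.2 ± 7.18 CPM (log2 fold change -0.52, standard error 0.113, adjusted p = 0.00872) and ANLN, anillin of the cleavage furrow, from 384 ± 15.4 to 286 ± 4.79 CPM (log2 fold change -0.43, standard error 0.0597, adjusted p = 0.000771). The condensin gene NCAPH and the cohesin protector SGO2, both on chromosome 2, fell by 0.66 and 0.53 on the log2 scale. CDKN1A, the cell cycle inhibitor p21, rose from 71.9 ± 4.96 to 105 ± 11.1 CPM (log2 fold change 0.55, standard error 0.0884, adjusted p = 0.00178), and RB1, on chromosome 13, fell from 97.4 ± 8.94 to 74.1 ± 5.26 CPM (log2 fold change -0.39, standard error 0.0838, adjusted p = 0.00772). Across the fits on 5 libraries, replication genes had 0 to 1 higher (1 without CD44 WT replicate 3) and 0 to 7 lower (0 without CD44 KO replicate 1 or 2). Mitotic genes then had 3 to 8 lower (3 without CD44 KO replicate 2 or 3). Each fit that left out 1 library still called ANLN, NCAPH and SGO2. RRM2, CHAF1A, ORC1, CDKN1A and RB1 dropped out in 3 to 5 of 6 fits, with an adjusted p of up to 0.0399 for RB1 without CD44 KO replicate 3.

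The identity of the cells was read from marker genes. ESR1 and ERBB2 passed the filter on low values and neither was called (ERBB2 81.6 ± 3.27 to 98.2 ± 8.22 CPM, adjusted p = 0.0308), while PGR did not pass it. Of 11 mesenchymal markers, all tested, 4 were higher and 1 lower, with VIM, vimentin, rising from 4008 ± 136 to 5239 ± 112 CPM (log2 fold change 0.39, standard error 0.0613, adjusted p = 0.00165), and their summed level was 12754 to 15781 CPM in CD44 WT and 14318 to 16871 CPM in CD44 KO. Of 13 epithelial markers 7 were tested, 1 of them higher and 2 lower, and their summed level was 1020 to 1052 CPM against 924 to 985 CPM, nearly all from KRT8 and KRT18. EPCAM and CDH1, which define epithelial cells, did not pass the filter. Among 12 leukocyte markers 2 were tested: PTPRC, or CD45, rose from 0.383 ± 0.186 to 3.93 ± 0.936 CPM (log2 fold change 3.33, standard error 0.367, adjusted p = 0.000182), the summed level was 5.98 to 7.26 CPM against 9.14 to 10.5 CPM, and 2 markers had 0 counts in every library. Of 9 endothelial markers 6 were tested, KDR higher and TEK lower, with a summed level of 19.1 to 20.9 CPM against 20.3 to 23 CPM. The part of other cells in these values was not tested. CD24, which is paired with CD44 in sorting breast cancer cells, stood at 185, 129 and 109 CPM in the 3 CD44 WT libraries and 50.8, 53.1 and 56.6 CPM in the 3 CD44 KO libraries (log2 fold change -1.40, standard error 0.16, adjusted p = 0.000233), and ITGA6, on chromosome 2, rose from 221 ± 13 to 303 ± 37.2 CPM (log2 fold change 0.46, standard error 0.0893, adjusted p = 0.00485). No single library decided the call of PTPRC and CD24. VIM and ITGA6 missed the threshold in 3 to 4 of 6 fits, with an adjusted p of up to 0.0278 for ITGA6 without CD44 WT replicate 2. When 1 library was dropped, mesenchymal markers had 1 to 4 higher (1 without CD44 KO replicate 1). Epithelial markers then had 0 to 1 higher (0 in 4 of 6 fits) and 1 to 2 lower (1 in 5 of 6 fits).

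The changes were set beside those of MDA-MB-231 only to see where they differ, with a test of the difference in a fit of all 12 libraries. Over all genes in that fit the difference passed for 4.12%, 653 of 15836. Of the 368 genes called in Hs578T that the naming rule holds, it passed for 122, or 33.2%, 66 of them higher and 56 lower in Hs578T CD44 KO. These genes were named for their change in Hs578T, so that this share is a description. In 77 of the 122 the fitted changes in the lines had opposite signs. The choice of genes that differ between the lines favours opposite signs. Whether the changes in MDA-MB-231 passed on their own is not given, so that the signs do not show opposite regulation.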

How the data were processed

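The authors deposited counts per gene for each library: paired reads of 50 bp from stranded mRNA libraries were aligned with HISAT2 2.1.0 to GRCh38, and featureCounts 1.6.2 counted fragments with a mapping quality of at least 10 over GENCODE 28 genes. Here 57754 of 58381 gene identifiers were given a symbol. The 6 Hs578T libraries (11328102 to 15737935 counts) were grouped by the labels and fitted alone with edgeR 4.0.16 in R 4.3.3, with limma 3.58.1 loaded. Genes above 1 CPM in at least 2 libraries and with at least 300 nt of exons were kept, scaled by TMM and tested with the quasi-likelihood test, and a Benjamini-Hochberg adjusted p of 0.01 was the threshold. The study's methods give the length filter as under 300 nt, which would drop CD44, so it was read the other way. The common biological coefficient of variation was 0.0949.

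The 90 gene lists, the genes named and the tests were chosen with earlier results of these data known, and lists are described by counts without a set test. The result of 1 list is not reported here. The text names up to 4 called members per list and direction by size of change (at least 1 CPM in a group), every called hyaluronan, cytokine, TGF-beta and WNT gene being allowed, the 15 largest changes per direction above a mean of 5 CPM, and up to 3 abundant members not called. The test was tried on simulated data. Alternatives were DESeq2 1.42.0, other scalings, filters, thresholds and fits, blocks, and each library left out. Promoters were matched for 10613 genes (RefSeq, GRCh38.p14). Motif and stretch counts are descriptions.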

Additional observations from a re-analysis of the deposited data

Results flagged for a closer look

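Of the 368 named genes called in Hs578T, 122 changed differently in Hs578T than in MDA-MB-231 by a test of the difference in a fit of all 12 libraries (edgeR, adjusted p of 0.01), against 4.12% of all genes in that fit. These genes were chosen on their change in Hs578T, so that the share is a description.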

How the results depend on the processing

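All calls shared between the main test and an alternative kept their direction. The count of 1525 changed genes was 1895 with DESeq2, 1527 with RLE size factors and 1189 with all 12 libraries in 1 fit. Without the filter on low counts it was 2858 (1391 higher, 1467 lower), at an adjusted p of 0.05 it was 3179 (1548 and 1631), with changes of 2-fold or more 724 (372 and 352), and among genes under 300 nt 6 (4 and 2), fewer genes being tested there. With 1 library left out it ranged from 698 to 2141, higher genes from 376 to 988 and lower genes from 300 to 1153. Without the 4 stretches of the genome, an alternative chosen after seeing the data, 477 lower genes were left. COL1A1, not called, had a log2 fold change of -0.0956 without CD44 WT replicate 3 and up to 0.21 without CD44 WT replicate 1; the cause was not tested.

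With the replicate number as a replicate block 1218 genes passed. The sources used here do not say whether the numbers pair the samples. Deviations of same-numbered libraries had correlations of -0.0655, 0.0144 and -0.116, which cannot decide it with 3 libraries per group. Libraries with consecutive numbers had 0.16, 0.0463 and 0.142, and a block on them gave 1732. The log2 fold change of CD44 stayed between -4.25 and -4.15 with 1 library left out. Depth limits genes near 1 CPM, where a library holds few counts.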

Other observations

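Long noncoding RNAs that passed were mostly higher in Hs578T CD44 KO. Of 1405 tested, 86 were higher and 26 lower (7.97% called), with a median log2 fold change of 0.165, while 649 protein-coding genes were higher and 725 lower of 12141, with a median of -0.0157. Among processed pseudogenes, whose reads can be shared with their parent genes, 9 were higher and 1 lower of 608 (1.64% called). The shares called of long noncoding RNAs and of processed pseudogenes lay below the 10.4% of all genes tested.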
